A study of Mus musculus with 8 samples.

Results

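In mouse epididymal fat, 9 genes of glutathione synthesis, glutathione recycling and the cytosolic thioredoxin system were followed: Slc7a11, Gclc, Gclm, Gss, Gsr, Txn1, Txnrd1, Prdx1 and Srxn1. They were taken by name from the deposited table of 37417 genes, and 9 of 9 names were found. RNA was sequenced from 4 knockout and 4 wild-type male C57Bl/6 mice on chow diet. The knockout mice carried floxed alleles of Atg3, an enzyme of autophagosome formation, and the tamoxifen-inducible Cre recombinase CreERT2 driven by the promoter of adiponectin, an adipocyte hormone. All mice of both genotypes received tamoxifen. The labels do not say whether the wild-type mice carried floxed alleles or Cre, and they give no age. Whole fat was sequenced, so endothelial, stromal and immune cells that keep Atg3 contribute RNA, and fewer cells of a type cannot be told apart from less RNA per cell.

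Glutathione is a small thiol peptide that buffers oxidants in the cytosol. Cells import cystine, join the resulting cysteine to glutamate in the rate-limiting step, add glycine, and return oxidised glutathione to its reduced form with NADPH. The thioredoxin system runs in parallel: thioredoxin reduces peroxiredoxins, which break down hydrogen peroxide, and thioredoxin reductase restores thioredoxin with NADPH. Most of these genes are known targets of NRF2, a transcription factor that binds antioxidant response elements and is held back by KEAP1, and in mouse liver loss of autophagy is known to raise NRF2 activity through the cargo receptor p62.

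Because the genes share this regulator in the literature, their promoters were searched for the core of the antioxidant response element, TGAC and GC separated by any 3 bases, on both strands. RefSeq windows in GRCm38.p6, from 250 bases before to 50 after a start site, were matched by symbol for 7 of the 9 genes (Srxn1, Gss, Slc7a11, Gclm, Txn1, Prdx1 and Txnrd1), with 9 windows in all. The motif was in 4 of these 9 windows, those of Gclm, Prdx1, Srxn1 and 1 of the 3 Txnrd1 starts, against 12.4% of all 32851 windows. In Srxn1 the match began 28 bases after the start site. The other matches are shown because they lie before the start site, each on the strand opposite to the gene, with the 9 motif bases in capitals. The stretches end before the first annotated exon base and lie at chr3:122245307-122245556 (Gclm), chr4:116685349-116685543 (Prdx1) and chr10:82858956-82859178 (Txnrd1), all on the plus strand.
Gclm: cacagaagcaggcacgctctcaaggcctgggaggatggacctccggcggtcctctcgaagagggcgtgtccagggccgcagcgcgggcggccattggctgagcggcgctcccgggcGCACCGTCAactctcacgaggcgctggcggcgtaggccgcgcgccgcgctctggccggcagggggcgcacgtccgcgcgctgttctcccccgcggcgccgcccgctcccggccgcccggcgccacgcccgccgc
Prdx1: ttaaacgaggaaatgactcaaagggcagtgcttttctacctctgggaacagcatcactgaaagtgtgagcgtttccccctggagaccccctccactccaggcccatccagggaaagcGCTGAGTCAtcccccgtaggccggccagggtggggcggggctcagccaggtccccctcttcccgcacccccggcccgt
Txnrd1: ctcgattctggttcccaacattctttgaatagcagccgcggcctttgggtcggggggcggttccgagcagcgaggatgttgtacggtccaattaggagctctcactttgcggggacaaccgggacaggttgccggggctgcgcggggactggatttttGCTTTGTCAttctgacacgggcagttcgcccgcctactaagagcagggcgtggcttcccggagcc
A match describes these letters and is no evidence that a factor binds there.

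The libraries held 12952190 to 21688464 counts in knockout and 10986375 to 17128811 in wild-type fat. Atg3 itself averaged 30.3 ± 1.84 CPM in knockout and 50.2 ± 4.34 CPM in wild-type fat (SD, n = 4 each), without overlap. CPM here are read counts scaled to library size with TMM factors, and they are not corrected for gene length. The 10 adipocyte markers summed to 27261 to 31970 CPM in knockout and 31848 to 38957 CPM in wild-type libraries, which overlap. Of these markers 9 had a log2 fold change below 0 and 1, Cidec, above, with a median of -0.29. Over all 14800 tested genes 7758 were below 0. Adipoq and Slc2a4 were lower without overlap, as were 672 of all tested genes. Knockout libraries 2 and 3 stood apart in the sum of 19 duct epithelium markers, though not in each marker. This sum was 64.3, 608, 629 and 63.1 CPM over knockout libraries 1 to 4, against 16.8 to 43.6 CPM in wild-type. Knockout library 1 held 146 CPM of Tgm4, a prostate gene, against at most 1.84 CPM elsewhere. The 6 endothelial markers had sums of 1132 to 1309 CPM in knockout and 1342 to 1613 CPM in wild-type fat, also without overlap. The sums of 9 macrophage, 6 mesothelial and 8 preadipocyte and fibroblast markers overlapped between the genotypes. The 12 liver markers were almost all Cyp2e1, and the other 11 summed to 78.6, 27.8, 30.6 and 109 CPM over knockout libraries 1 to 4, against 17.4 to 32.5 CPM in wild-type. All 9 genes were refitted without knockout libraries 2 and 3 and with the duct marker level as a covariate. The part of the adipocyte, liver, prostate and endothelial markers was not tested. That level, a mean log2 of CPM + 1, was 1.65, 4.48, 4.59 and 1.91 over knockout libraries 1 to 4, against 0.73 to 1.13 in wild-type. It did not overlap between the genotypes, so the covariate fit cannot tell the duct marker level apart from the genotype.

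All 9 genes had a higher mean in knockout fat, and 1 of them, Gsr, passed an adjusted p of 0.05 in edgeR's quasi-likelihood test across 14800 genes. Of all tested genes 0.277% were called higher and 0.128% lower, or 0.405% in either direction. For 6 of the 9 genes (Gclm, Gsr, Txn1, Txnrd1, Prdx1 and Srxn1) every knockout library was above every wild-type library on the TMM scale. This held for 4.32% of all tested genes, and 8.86% of them were without overlap in either direction. For Txnrd1 it depended on the scaling, with 86.88 CPM in the lowest knockout and 86.87 CPM in the highest wild-type library. As a share of library totals, Txnrd1 in knockout library 1 (1129 of 12952190) was below wild-type library 1 (959 of 10986375). An unadjusted p under 0.05 with a higher knockout level was reached by 7 of 9, and with a lower level by 0 of 9, against 8.52 and 7.66% of all genes, or 16.2% in either direction. Log2 fold changes (log2FC, knockout against wild-type) ran from 0.15 to 0.82 with a median of 0.35, while the median over all tested genes was -0.01 and 47.6% of them were above 0. All 9 genes passed the filter on low counts. Without knockout libraries 2 and 3, and with the duct marker covariate, the log2FC was 0.48 and 0.51 for Gclm, 0.19 and 0.21 for Gss, 0.29 and 0.27 for Txn1, and 0.39 and 0.43 for Prdx1. Together the 9 genes took 0.0876, 0.0870, 0.0874 and 0.0802% of the reads in knockout libraries 1 to 4, against 0.0671, 0.0671, 0.0681 and 0.0622% in wild-type libraries 1 to 4.

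**Figure D1:**
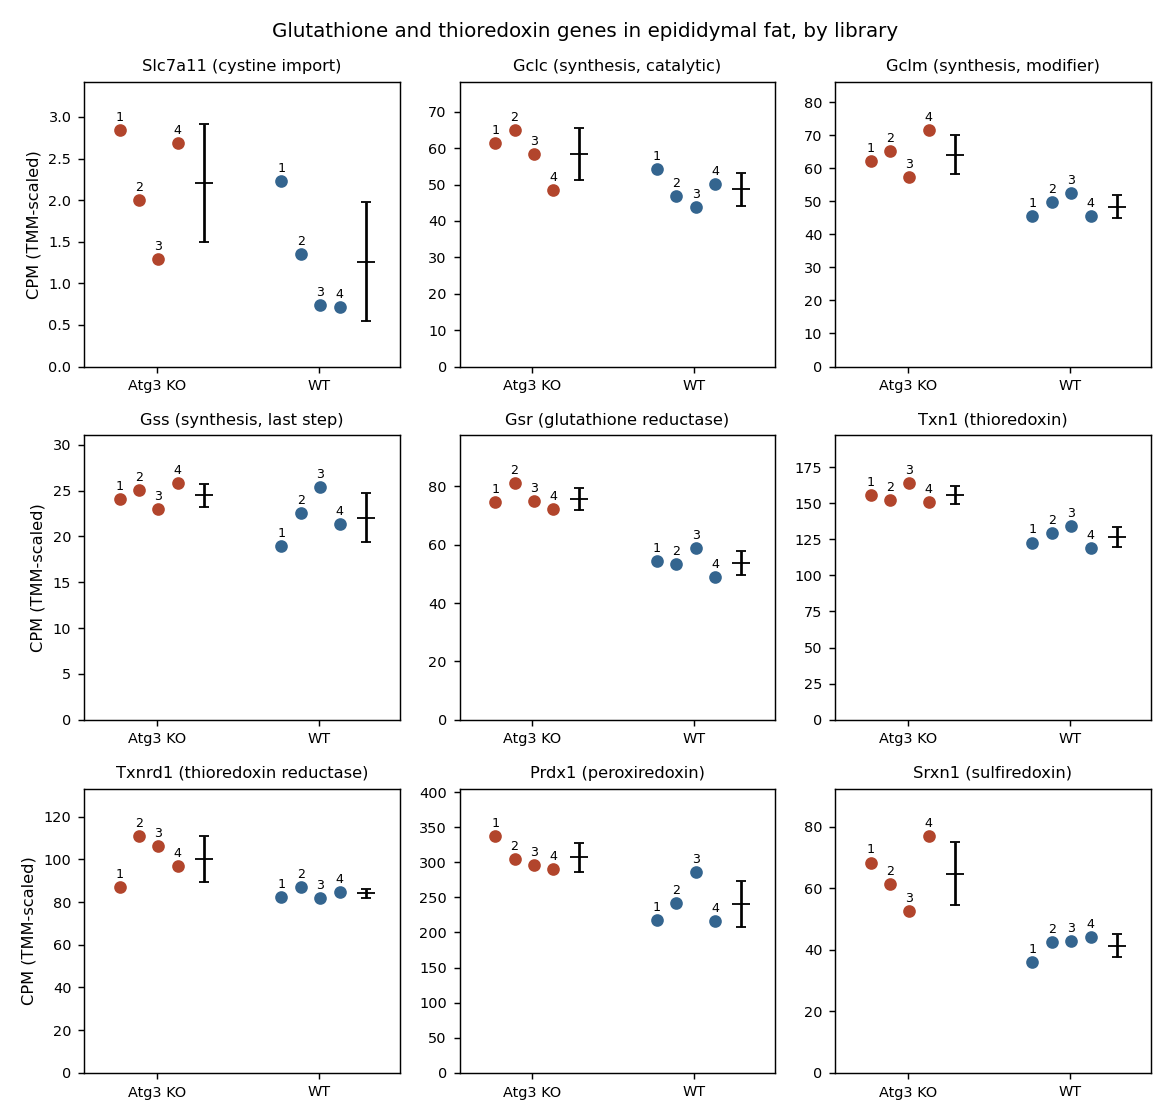
TMM-scaled CPM of the 9 genes (vertical axes, from 0) in the knockout libraries (red, left) and wild-type libraries (blue, right); numbers are replicate numbers, and the bar beside each group is its mean ± SD (n = 4). Gsr, Gclm, Txn1 and Srxn1 show a gap between the genotypes, whereas Slc7a11, Gclc and Gss overlap.

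Gsr encodes glutathione reductase, the enzyme that returns oxidised glutathione to its reduced form. Its knockout libraries held 74.6, 81.2, 74.98 and 72.4 CPM, against 54.4, 53.4, 58.9 and 48.8 CPM in wild-type libraries. The lowest knockout library, at 72.4 CPM, was well above the highest wild-type library, at 58.9 CPM. Means were 75.8 ± 3.79 CPM in knockout and 53.9 ± 4.15 CPM in wild-type fat (SD, n = 4), a ratio of 1.41 and a log2FC of 0.49 (SE 0.076, edgeR adjusted p = 0.0378). The gene lies on chromosome 8, plus strand, from 33652523 to 33698163 (mm10), and a small RNA gene with 8 reads over all libraries lies within it. The call was lost without any one of 7 of the 8 libraries: adjusted p was 0.136, 0.0966 and 0.0628 without knockout libraries 2, 3 and 4, and 0.0812, 0.140, 0.0643 and 0.101 without wild-type libraries 1 to 4. It held only without knockout library 1 (0.0346). With the replicate number as a block it was 0.137, without knockout libraries 2 and 3 together 0.230, and with the duct marker level as a covariate 0.370. The log2FC stayed between 0.44 and 0.54 over all 19 alternatives run.

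The glutamate-cysteine ligase that opens glutathione synthesis is a pair of a catalytic subunit, Gclc, and a modifier subunit, Gclm, and these differed in how the knockout libraries behaved. Gclm had 62.2, 65.3, 57.5 and 71.7 CPM in knockout libraries 1 to 4 and 45.4, 49.8, 52.5 and 45.5 CPM in wild-type libraries 1 to 4. The genotypes did not overlap, and knockout library 4 was the highest. Its log2FC of 0.41 (SE 0.088) did not pass (edgeR adjusted p = 0.0944). Gclc had 61.3, 65.1, 58.4 and 48.4 CPM in the knockout libraries, against 54.3, 46.7, 43.7 and 50.2 CPM in wild-type. Here knockout library 4 was the lowest of its group and lay within the wild-type range, while the other 3 lay above it. The log2FC was 0.26, with a 95% interval from 0.02 to 0.50 (edgeR adjusted p = 0.280). Without knockout libraries 2 and 3, which hold most duct marker reads, it was 0.18 (adjusted p = 0.739), and with the duct marker covariate 0.13 (adjusted p = 0.824). Gclc lies on chromosome 9 (77754535 to 77794485, plus strand) and Gclm on chromosome 3 (122245557 to 122269984, plus strand), where a noncoding gene on the other strand had 0 reads.

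Per kilobase of exon, the level of Gclc was 1.48, 1.496, 1.53 and 1.01 times that of Gclm in knockout libraries 1 to 4, against 1.79, 1.41, 1.25 and 1.66 times in wild-type libraries 1 to 4. Means were 1.38 ± 0.244 in knockout and 1.53 ± 0.244 in wild-type fat (SD, n = 4), and the difference did not pass a two-sided exact permutation test over the 70 assignments of libraries (p = 0.486, 0.571 adjusted over the 3 ratios tested). Knockout library 4 had the lowest ratio of all 8 libraries, with nearly equal levels of both transcripts. The log2 difference between the genotypes was -0.15, and it was -0.01 without knockout library 4, -0.07 without wild-type library 1 and -0.24 without wild-type library 3.

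Upstream and downstream of the ligase, Slc7a11 and Gss gave no difference beyond the spread between libraries. Slc7a11, the exchanger that imports cystine (chromosome 3, 50364936 to 50443613, minus strand), was the least abundant of the 9, with 37, 27, 19 and 56 reads in knockout libraries 1 to 4 and 26, 23, 9 and 11 reads in wild-type libraries 1 to 4. In CPM this was 2.85, 2.001, 1.29 and 2.69 in knockout and 2.24, 1.35, 0.738 and 0.720 in wild-type libraries, which overlap. Its log2FC of 0.82 was the largest of the 9 and the least certain, with a 95% interval from -0.12 to 1.75 (edgeR adjusted p = 0.375). It was 1.15 without knockout libraries 2 and 3 (adjusted p = 0.568) and 1.33 with the duct marker covariate (adjusted p = 0.531). Gss, which adds glycine in the last step, had 24.1, 25.1, 22.9 and 25.9 CPM in knockout and 18.9, 22.5, 25.4 and 21.4 CPM in wild-type libraries. The groups overlapped, with a log2FC of 0.15 and an interval from -0.08 to 0.39 (edgeR adjusted p = 0.516). The log2FC was 0.09 without wild-type library 1 and 0.23 without wild-type library 3. Gss (chromosome 2, 155563181 to 155592810, minus strand) overlaps Acss2 on the opposite strand, which had 11835 reads against its own 2767. The kit keeps strand, but the strand setting of the count is unknown here, and the Gss level is uncertain for that reason.

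The ratio of Gsr to Gss, recycling against synthesis, was 6.44, 6.72, 6.79 and 5.82 per kilobase in knockout libraries 1 to 4 and 5.97, 4.93, 4.82 and 4.74 in wild-type libraries 1 to 4. It averaged 6.44 ± 0.443 in knockout and 5.11 ± 0.578 in wild-type fat (SD, n = 4). Knockout library 4 fell below wild-type library 1, so the groups overlapped, and the two-sided exact permutation p was 0.0571 (0.171 adjusted over 3 ratios). The smallest p this design allows is 0.0286. Without wild-type library 1 the exact permutation p was 0.0286 (0.0857 adjusted).

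**Figure D2:**
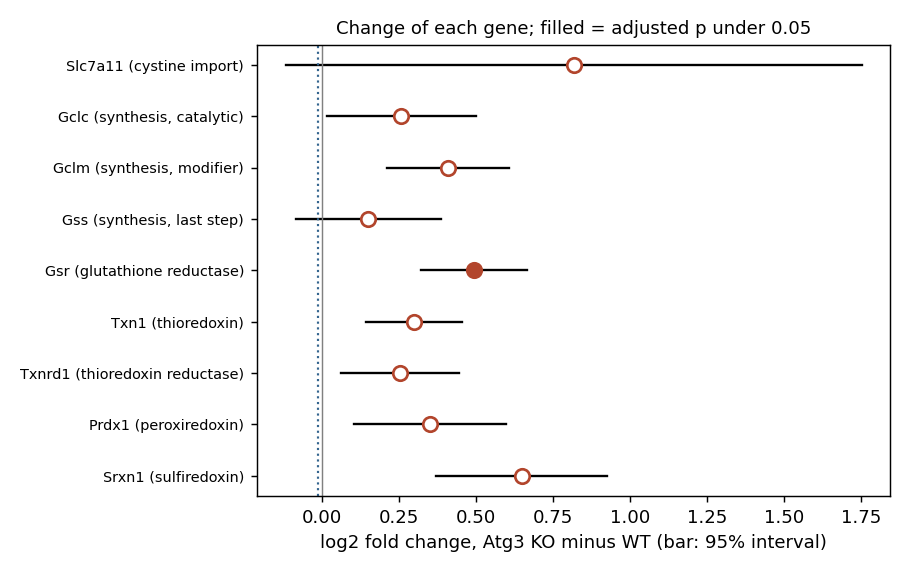
Log2 fold change of each gene (horizontal axis, knockout minus wild-type; points) with its 95% interval from edgeR (bars); the filled point passed an adjusted p of 0.05 and the dotted line marks the median of all 14800 tested genes, -0.01. All 9 points lie above 0, Gsr alone is filled, and the intervals of Slc7a11 and Gss cross 0.

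In the thioredoxin branch the 4 genes were higher in every knockout than in any wild-type library on the TMM scale. The margins ranged from wide to negligible. None passed edgeR's adjusted p of 0.05 (0 of 4, with 4 at an unadjusted p under 0.05). Over all tested genes 4.32% were higher without overlap, 0.277% were called higher, and 8.52% were higher at an unadjusted p under 0.05. Txn1, cytosolic thioredoxin, had 156, 152, 164 and 150.5 CPM in knockout libraries and 123, 130, 134 and 119 CPM in wild-type libraries. It had the smallest spread between knockout libraries of the 9 genes, with a coefficient of variation of 3.89% (5.32% in wild-type). Its log2FC was 0.30 (SE 0.069, adjusted p = 0.110). The gene lies on chromosome 4 (57943373 to 57956411, minus strand).

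Txnrd1, cytosolic thioredoxin reductase, is a selenoprotein (chromosome 10, 82833951 to 82897724, plus strand). It had 86.9, 111, 106 and 96.9 CPM in knockout libraries 1 to 4, against 82.5, 86.9, 82.1 and 84.7 CPM in wild-type libraries 1 to 4. Knockout library 1 was above the highest wild-type library by a negligible margin, and the knockout values spread over a coefficient of variation of 10.6%, against 2.62% in wild-type. The log2FC was 0.25 (SE 0.085, edgeR adjusted p = 0.196). The 2 highest knockout values were those of libraries 2 and 3, which held 608 and 629 CPM of duct epithelium markers. Without both the log2FC was 0.14 (adjusted p = 0.713), and with the duct marker level as a covariate it was 0.05 (adjusted p = 0.895). The ratio of Txnrd1 to Txn1 per kilobase was 0.146, 0.191, 0.169 and 0.168 in knockout libraries and 0.176, 0.175, 0.160 and 0.186 in wild-type libraries, which overlap (two-sided exact permutation p = 0.571, also 0.571 adjusted over 3 ratios).

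Prdx1, a peroxiredoxin that reduces hydrogen peroxide and is restored by thioredoxin, had 337, 304, 297 and 291 CPM in knockout and 218, 243, 287 and 216 CPM in wild-type libraries. Wild-type library 3 came close to the lowest knockout library, and the log2FC was 0.35 (SE 0.109, edgeR adjusted p = 0.172). Srxn1, sulfiredoxin, which repairs over-oxidised peroxiredoxins, had 68.3, 61.3, 52.5 and 76.9 CPM in knockout and 35.9, 42.5, 42.8 and 44.1 CPM in wild-type libraries. It had the largest ratio of means among the 6 genes without overlap, 1.57, with 64.8 ± 10.4 CPM in knockout and 41.3 ± 3.65 CPM in wild-type fat (SD, n = 4). The log2FC was 0.65 with a 95% interval from 0.37 to 0.92, and it missed the threshold (edgeR adjusted p = 0.0698). Prdx1 lies on chromosome 4 (116685544 to 116700822, plus strand) and Srxn1 on chromosome 2 (152105516 to 152111376, plus strand). The 2 highest Srxn1 values were those of knockout libraries 4 and 1, where the 11 liver markers summed to 109 and 78.6 CPM, and the part of these in the result was not tested. Without knockout libraries 2 and 3 the log2FC of Srxn1 was 0.83 (adjusted p = 0.0897), and with the duct marker covariate 0.91 (adjusted p = 0.116).

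**Figure D3:**
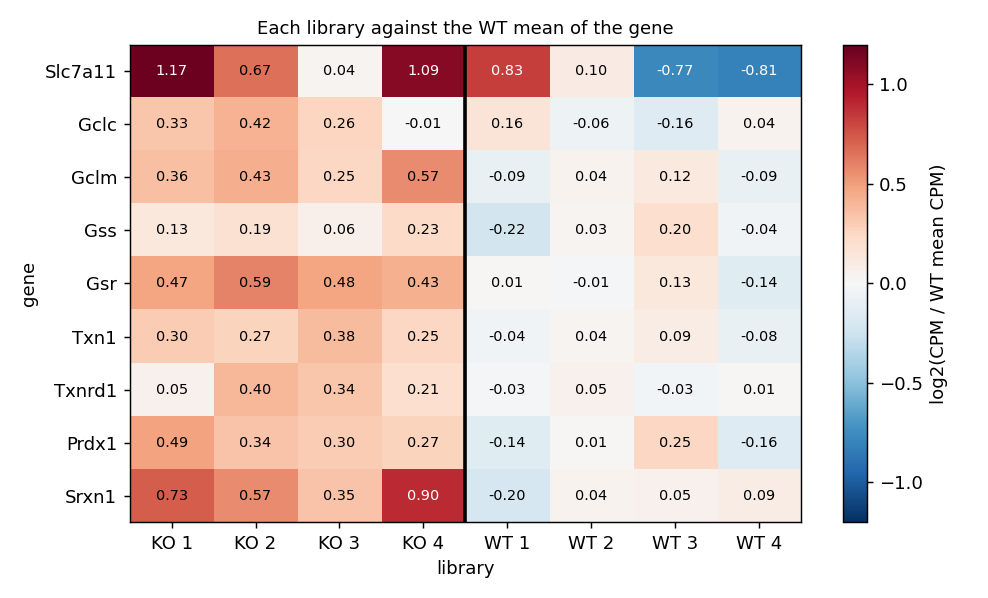
Log2 of each library's CPM over the mean wild-type CPM of the same gene, printed and coloured (red higher, blue lower), with genes in rows and the knockout libraries left of the wild-type libraries. Srxn1 and Gclm are highest in knockout library 4 (0.90 and 0.57) and lowest of their group in library 3, whereas Gclc is at -0.01 in library 4.

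The knockout libraries did not rank alike for all genes. Gclm, Gss and Srxn1 were highest in knockout library 4 and lowest in knockout library 3. Gclc and Gsr were highest in library 2 and lowest in library 4, and Txnrd1 was highest in library 2 and lowest in library 1. Across the 8 libraries the log2 CPM of Gclm and Srxn1 had a Pearson r of 0.94, and their deviations from the genotype means one of 0.73. For Gclc and Gclm these were 0.37 and -0.71, and for Gsr and Txn1 0.95 and 0.56. Each point is 1 library, so the genes of a pair share its depth and its mix of cells, and the first of each pair includes the difference between the genotypes.

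Transcripts most like Gsr over the 8 libraries were Gde1, a glycerophosphodiesterase (r = 0.98), Slc39a11, a zinc transporter (0.97), and Ldhd, a D-lactate dehydrogenase (0.97). Ldhd had 112, 124, 105 and 81.1 CPM in knockout and 29.2, 31.7, 54.0 and 33.9 CPM in wild-type libraries (log2FC 1.504, edgeR adjusted p = 0.0281). Genes picked for a high r with Gsr tend to differ between the genotypes as Gsr does, so this call is no separate evidence. Gclc was most like Ttc36, Akap8l and Tor2a (r = 0.97, 0.96 and 0.96). Txnrd1 was most like Orai3, a calcium channel subunit (0.99), Adcy8, an adenylyl cyclase (0.98), and Prom1, also known as CD133 (0.98). Prom1 had 5.46, 102, 99.4 and 17.7 CPM in knockout libraries 1 to 4, against 1.98 to 3.86 CPM in wild-type, so its high libraries were 2 and 3, as for the duct markers.

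Levels between genes were compared as RPKM, the same scaled counts divided by exonic length. The order was the same at both ends in the 2 genotypes. Txn1 was the most abundant, with 148 ± 5.76 RPKM in knockout and 120.3 ± 6.40 in wild-type fat, followed by Prdx1 with 101 ± 6.87 and 79.1 ± 10.8. Gsr (27.5 ± 1.38 in knockout, 19.6 ± 1.51 in wild-type) and Txnrd1 (24.9 ± 2.64 and 20.9 ± 0.548) overlapped in each genotype. Srxn1 came next with 23.0 ± 3.68 in knockout and 14.7 ± 1.29 in wild-type fat, overlapping Gsr, Txnrd1 and Gclc in knockout and Gclc in wild-type libraries. Gclc had 17.0 ± 2.08 and 14.2 ± 1.33, Gclm 12.5 ± 1.16 and 9.40 ± 0.674, Gss 4.28 ± 0.221 and 3.85 ± 0.471, and Slc7a11 0.196 ± 0.0633 and 0.112 ± 0.0634 RPKM in knockout and wild-type fat (SD, n = 4).

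**Figure D4:**
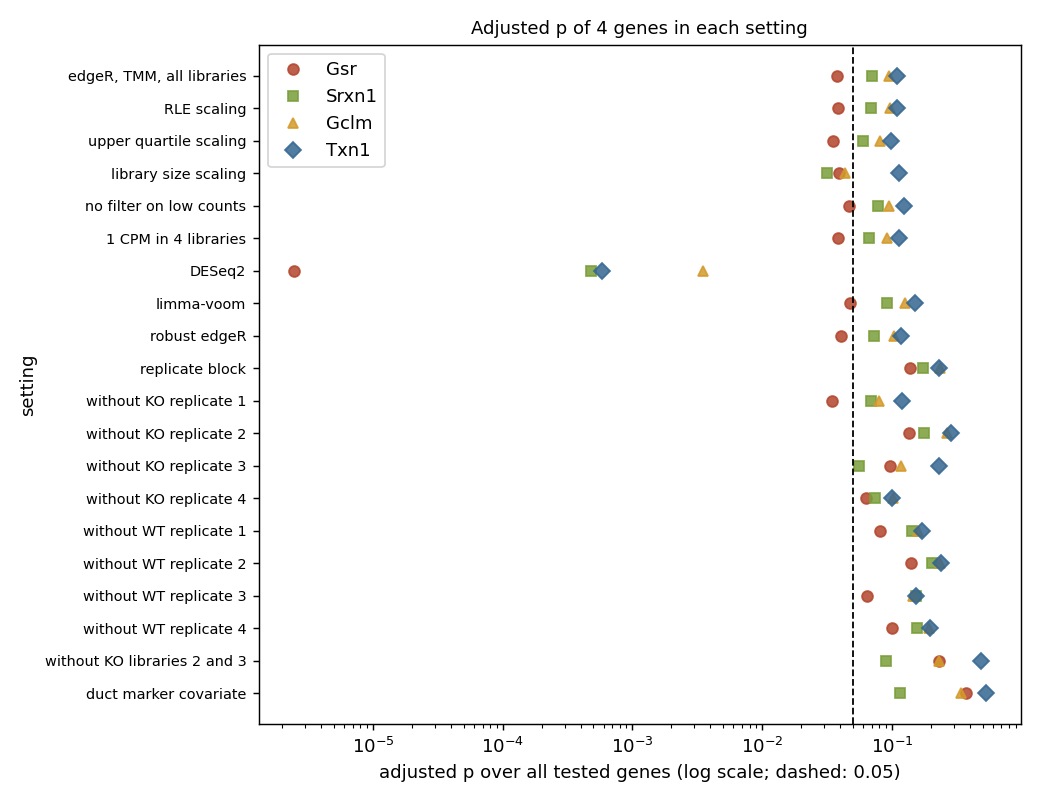
Adjusted p over all tested genes (horizontal log axis; dashed line at 0.05) of Gsr, Srxn1, Gclm and Txn1 in the edgeR fit with TMM scaling and in each of the 19 alternatives (vertical axis). Gsr is left of the line with other scalings and filters but right of it in most fits that leave out a library, and DESeq2 places all 4 genes left of it.

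The other genes of the pathway were counted in lists. None of the lists had a gene past edgeR's adjusted p of 0.05 with all libraries. DESeq2 called 5.48% of all genes it gave an adjusted p. At an unadjusted p under 0.05 in edgeR, 8.52% of all tested genes were higher and 7.66% lower. Of 19 other thioredoxin family genes 0 passed in edgeR (2 higher and 0 lower at an unadjusted p under 0.05, and 0 in DESeq2 or limma-voom), with a median log2FC of -0.01. Mitochondrial thioredoxin Txn2, its reductase Txnrd2 and the thioredoxin inhibitor Txnip had log2FC of 0.12, -0.01 and -0.04. These were chosen after their values were seen. The lowest adjusted p on this list was that of Tmx2, a membrane thioredoxin-like protein (log2FC 0.32, edgeR adjusted p = 0.243). Among 4 glutaredoxins, which use glutathione to reduce proteins, 0 passed in edgeR (1 higher and 0 lower unadjusted, 0 in DESeq2 or limma-voom). That 1 was Glrx, with 9.44 ± 0.492 CPM in knockout and 7.57 ± 0.925 CPM in wild-type fat (SD, n = 4). Of the 5 other peroxiredoxins 0 passed in edgeR (0 unadjusted, 0 in DESeq2 or limma-voom), with log2FC between -0.16 for Prdx4 and 0.32 for Prdx6.

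Genes that break down or export glutathione held the widest range. Over all genes 8.52% were higher and 7.66% lower at an unadjusted p under 0.05, and DESeq2 called 5.48%. Of the 16 tested on this list, 0 passed in edgeR or limma-voom, 7 were higher and 2 lower at an unadjusted p under 0.05, and DESeq2 called 4. Without knockout library 1 edgeR called 1 of them, Ggt1 (adjusted p = 0.0324), in a fit that called 290 of 15065 genes. Ggt1, a surface enzyme that cleaves glutathione, had 1.31, 58.5, 47.0 and 3.12 CPM in knockout libraries 1 to 4 and 0.164 to 0.946 CPM in wild-type libraries (log2FC 5.84, edgeR adjusted p = 0.108). Its high libraries, 2 and 3, were those with 608 and 629 CPM of duct markers. Oplah, which recycles 5-oxoproline to glutamate, was less uneven, with 151, 148, 124 and 155 CPM in knockout and 106, 79.1, 103 and 118 CPM in wild-type libraries (log2FC 0.51, edgeR adjusted p = 0.131, DESeq2 0.0103). Ggt6 (log2FC 2.21, edgeR adjusted p = 0.0908) was at or under 2.52 CPM in all libraries. Dpep1, a dipeptidase that acts on glutathione products, was the gene DESeq2 called lower (chosen after its values were seen), with 102, 105, 141 and 89.9 CPM in knockout and 152, 155, 141 and 161 CPM in wild-type libraries and a log2FC of -0.48 (edgeR adjusted p = 0.142). Chac1, an intracellular glutathione-degrading enzyme chosen after its values were seen, had a log2FC of 0.81 (edgeR adjusted p = 0.180).

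Of 14 tested cysteine supply genes 0 passed in edgeR or limma-voom (2 higher and 1 lower unadjusted, 1 in DESeq2). Here and for the lists below, the shares over all genes were 8.52% higher and 7.66% lower unadjusted, and 5.48% in DESeq2. Slc7a9, a cystine transporter of kidney and gut, was below the count filter, with 0.385, 24.9, 25.3 and 1.39 CPM in knockout libraries 1 to 4 and at most 0.0860 CPM in wild-type libraries. It was called by edgeR without knockout library 1 (adjusted p = 0.0268) and in none of the other alternatives, and its high libraries were those with the most duct markers. The DESeq2 call was Gnmt, a glycine methyltransferase, with 1.78 ± 0.643 CPM in knockout and 0.661 ± 0.168 CPM in wild-type fat. Slc3a2, the partner chain of Slc7a11, had a log2FC of -0.12 (edgeR adjusted p = 0.555; chosen after its value was seen). Among 7 methionine sulfoxide reductases and sestrins 0 passed in edgeR (3 higher and 1 lower unadjusted, 0 in DESeq2 or limma-voom), and their lowest adjusted p was that of Msra, a methionine sulfoxide reductase (log2FC 0.30, edgeR adjusted p = 0.195). The 7 genes of selenoprotein synthesis, on which Txnrd1 depends, had log2FC between -0.14 and 0.12, with 0 passing in edgeR (0 unadjusted, 0 in DESeq2 or limma-voom). Of 13 gene models of the NRF2 axis 0 passed in edgeR or limma-voom (2 higher and 0 lower unadjusted, 1 in DESeq2). That 1 was Sqstm1, which encodes p62, with 514 ± 24.0 CPM in knockout and 405 ± 43.9 CPM in wild-type fat (SD, n = 4; log2FC 0.34, edgeR adjusted p = 0.159, DESeq2 0.0120). The other gene that was higher unadjusted was Hmox1 (log2FC 0.34, edgeR adjusted p = 0.294). Of the 13 models 5 had a log2FC above 0 and 8 below. Those above were Sqstm1, Hmox1, Nqo1, Maff and a model of Mafg. Those below were Nfe2l2, Rbx1, Nfe2l1, the other model of Mafg, Cul3, Mafk, Bach1 and Keap1. Nqo1, an NRF2 target chosen after its value was seen, had a log2FC of 0.27 (edgeR adjusted p = 0.480). The list joins targets and regulators of NRF2, so this split does not describe its targets alone. The transcripts of NRF2 itself, Nfe2l2, and of Keap1 had log2FC of -0.15 and -0.01 (edgeR adjusted p = 0.365 and 0.980, and Keap1 was chosen after its value was seen).

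**Figure D5:**
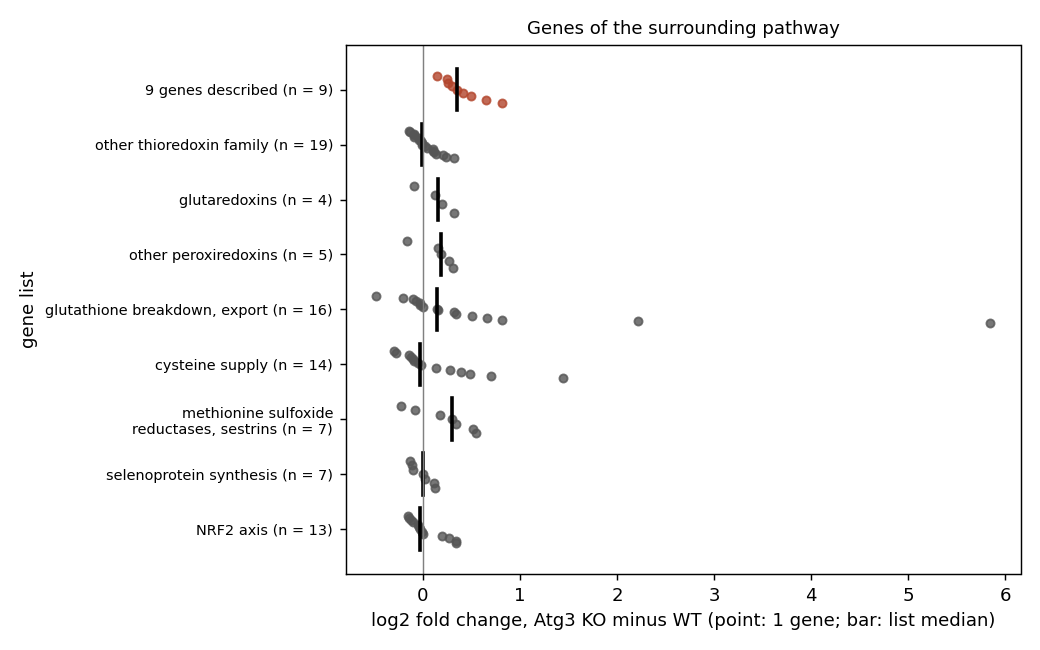
Log2 fold change (horizontal axis, knockout minus wild-type) of every tested gene in each list (rows; 1 point a gene, bar at the list median). The 9 genes described (red) lie between 0.15 and 0.82 with a median of 0.35, other thioredoxin family genes centre at -0.01, and the point at 5.84 is Ggt1.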

How the data were processed

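RNA sequencing of polyadenylated RNA from 8 samples of epididymal fat was analysed. Novoalign 2.8.1, Picard and build mm10 are named in the submitters' processing notes without roles. The counting program and strand setting: not given in the sources used here. Raw read counts and FPKM values per gene were deposited, per the file headers; the deposited FPKM served only as a check (158499 of 158499 values above 0 equal count over exonic length and library total within 0.1%). File starts count from 0: of 32581 genes matched to GENCODE M21, 24160 starts lie 1 base lower and 426 are equal, so 1 was added. The members and lists were chosen with earlier results of these data known.

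Counts were analysed in R 4.3.3 with edgeR 4.0.16: filterByExpr (minimum count 10) kept 14800 genes, and TMM scaling and the quasi-likelihood F test without covariates followed. Adjusted p-values follow Benjamini and Hochberg, over all tested genes. SE and intervals (95%) come from the test statistic. P-values set the difference between the genotypes against the spread between the libraries of these mice. Ratios of length-scaled levels were tested by exact permutation. Named genes were the 9 members, the genes of each list with the lowest adjusted p (up to 3), and for Gclc, Gsr and Txnrd1 the 3 genes with the highest r. Not all genes the rule took are printed. Of the genes outside the rule, Prdx4 is named as an end of its list's range and Slc7a9 for its call in an alternative fit. The NRF2 axis is named in full for the signs of its log2FC, and other pathway genes outside the rule are named as such. Mafg names 2 gene models, and Dnah5, Adgre1 and Spink1 were not matched. Alternatives used DESeq2 1.42.0 and limma 3.58.1 (voom), other scalings and filters, the replicate block and leaving out each library; leaving out knockout libraries 2 and 3 and the duct marker covariate (mean log2 of CPM + 1) were chosen after seeing the data. As a check for libraries deposited more than once, counts of each pair within a genotype were compared. All pairs differed beyond sampling noise (lowest chi-square per gene 20.8). The check cannot show whether each library came from a different mouse.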

Additional observations from a re-analysis of the deposited data

Results flagged for a closer look

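A library that lay apart from the other 3 of its genotype was found in 7 of 74 groups of 4 values examined (genes and ratios in each genotype); chance alone marks about 1 group in 20. Knockout library 4 had a Gclc over Gclm ratio of 1.01, against 1.48 to 1.53 in the other knockout libraries. Wild-type library 1 had a Gsr over Gss ratio of 5.97, against 4.74 to 4.93 in the other wild-type libraries. The peroxiredoxin Prdx3 had 176 CPM in knockout library 1, against 146 to 149 CPM in the other knockout libraries. Cth, which makes cysteine from cystathionine, had 11.04 CPM in knockout library 2, against 7.42 to 7.74 CPM in the others, and 7.30 CPM in wild-type library 3, against 6.11 to 6.29 CPM. Txndc5 had 172 CPM in wild-type library 4, against 197 to 202 CPM. Gnmt had 0.411 CPM in wild-type library 2, against 0.720 to 0.774 CPM.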

How the results depend on the processing

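The log2FC of each of the 9 genes kept its sign in all 19 alternatives. Of the 9 genes 1 was called, and 3 were with library size scaling (Gclm, Gsr and Srxn1), 5 with DESeq2 (Gclm, Gsr, Prdx1, Srxn1 and Txn1), and 0 with the replicate block, without knockout libraries 2 and 3, or with the duct marker covariate (edgeR; at an unadjusted p under 0.05 were 7, 6 and 6 of the 9, against 2042 of 14800, 1294 of 15191 and 1331 of 14800 genes). Leaving out single libraries gave 0 to 1. Over all genes 60 were called, 73 with library size scaling, 810 with DESeq2 and 14 with the replicate block. The count was 3 without knockout libraries 2 and 3, 2 with the duct marker covariate, and 0 to 290 without single libraries (0 without knockout library 2 in edgeR, with 1573 at an unadjusted p under 0.05). The cause was not tested. Same-numbered libraries of the genotypes had deviations that correlated at 0.18, -0.11, -0.25 and 0.06. Weak correlations cannot show whether the numbers pair the mice, so pairing stays unknown. The Txnrd1 over Txn1 ratio (log2 difference -0.05) ran from -0.11 to 0.0151 when single libraries were left out, the reversed value being that without knockout library 1. The Gclc over Gclm ratio (-0.15) ran from -0.24 to -0.01 and the Gsr over Gss ratio (0.34) from 0.30 to 0.41. Depth limits Slc7a11, with 9 to 56 reads a library.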
